A study of Rattus norvegicus with 20 samples.

Results

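The calcium/calmodulin kinase genes described here are *Camkv*, *Camk1*, *Camk1d*, *Camk1g*, *Camk2a*, *Camk2b*, *Camk2d*, *Camk2g*, *Camk4* and *Camkk2*, chosen by gene symbol. They are 10 of the 32402 genes in each expression table, each symbol matched a single gene, and all 10 passed the filter on low values. RNA was measured by poly(A) RNA-seq in punches of the hypothalamic supraoptic nucleus (SON) of male Wistar Han rats. Adult rats were 3 months old and aged rats 18 months old, and each age had 5 rats with free access to water (euhydrated, EH) and 5 deprived of it (dehydrated, DH). The labels give 2 days of dehydration and the study's methods a longer time, and the treatment text of every sample, adult rats included, carries the same wording. The labels name no transgene and no drug for any group.

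Calcium that enters an active neuron binds calmodulin, and the complex switches on a family of serine/threonine kinases. The CaMK2 enzymes, built from the products of *Camk2a*, *Camk2b*, *Camk2d* and *Camk2g*, are holoenzymes of many subunits that can keep themselves active by autophosphorylation and that act on glutamate receptors at synapses. A separate cascade runs from CaMKK2, the upstream kinase, to the CaMK1 enzymes in the cytoplasm and to CaMK4, which is enriched in the nucleus and phosphorylates the transcription factor CREB. *Camkv* codes for a vesicle-associated protein that resembles these kinases and binds calmodulin but lacks kinase activity. In the SON, magnocellular neurons release vasopressin and oxytocin during osmotic stimulation, when their firing and calcium entry rise.

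The libraries held between 24268398 and 30348118 reads in genes (median 27691998), recovered from the deposited values. The markers of the labelled tissue were present in every rat: *Avp*, which codes for vasopressin, lay between 113730 and 325750 normalized counts, and *Oxt* (oxytocin) between 71073 and 147870. Of 6 magnocellular markers, 3 were higher in aged EH than in adult EH rats, 4 were higher after DH in adults and 3 in aged rats, and none was lower. A punch also takes in neighbouring tissue, and 14 markers of glutamatergic neurons of the cortex and amygdala were all detected. Their mean log2 value in the DH tables was 7.23 to 8.10 in adult EH, 7.05 to 7.86 in adult DH, 7.66 to 8.26 in aged EH and 7.14 to 7.55 in aged DH rats. The aged groups did not overlap on this measure and the adult groups did.

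The RefSeq promoter table (GRCr8, 250 bases before to 50 after each start) held 8 of the 10 genes, without *Camk1d* and *Camkk2*. The promoters of *Camkv* (chr8:117505189-117505488, + strand) and *Camk2a* (chr18:56648930-56649229, + strand) are shown because both genes fell in aged DH rats and varied together from rat to rat. Capitals mark the GC box GGGCGG, the letters TGACG of the short CREB site and the full CREB site TGACGTCA, on either strand.
Camkv promoter: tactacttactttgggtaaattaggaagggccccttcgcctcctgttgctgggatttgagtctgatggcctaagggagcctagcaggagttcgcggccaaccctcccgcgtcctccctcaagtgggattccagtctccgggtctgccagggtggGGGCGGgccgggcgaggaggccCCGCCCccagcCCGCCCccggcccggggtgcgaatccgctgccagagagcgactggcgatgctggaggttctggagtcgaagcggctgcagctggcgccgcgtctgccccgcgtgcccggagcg
Camk2a promoter: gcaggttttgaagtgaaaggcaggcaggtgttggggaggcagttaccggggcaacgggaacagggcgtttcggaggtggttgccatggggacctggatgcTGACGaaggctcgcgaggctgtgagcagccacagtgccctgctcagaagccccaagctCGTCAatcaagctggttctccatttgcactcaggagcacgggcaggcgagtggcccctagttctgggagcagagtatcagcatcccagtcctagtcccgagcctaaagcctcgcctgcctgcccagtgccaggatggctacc
The *Camkv* window held 3 GC boxes and no TGACG, whereas the *Camk2a* window held 2 TGACG matches and no GC box. None of the 8 windows held the full site TGACGTCA, which occurs in 1.91% of the 27457 promoters in the table. The short site, which is part of the full site, occurs in 22.0% of them and was found in *Camk2a* and *Camk1*. The GC box occurs in 34.9%, and besides *Camkv* it was found in *Camk2b* (6 matches), *Camk2d* (3) and *Camk2g* (9), some of them overlapping. These matches describe the letters in a 300-base window only. The expression tables were made on another assembly, Rn6.

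**Figure D1:**
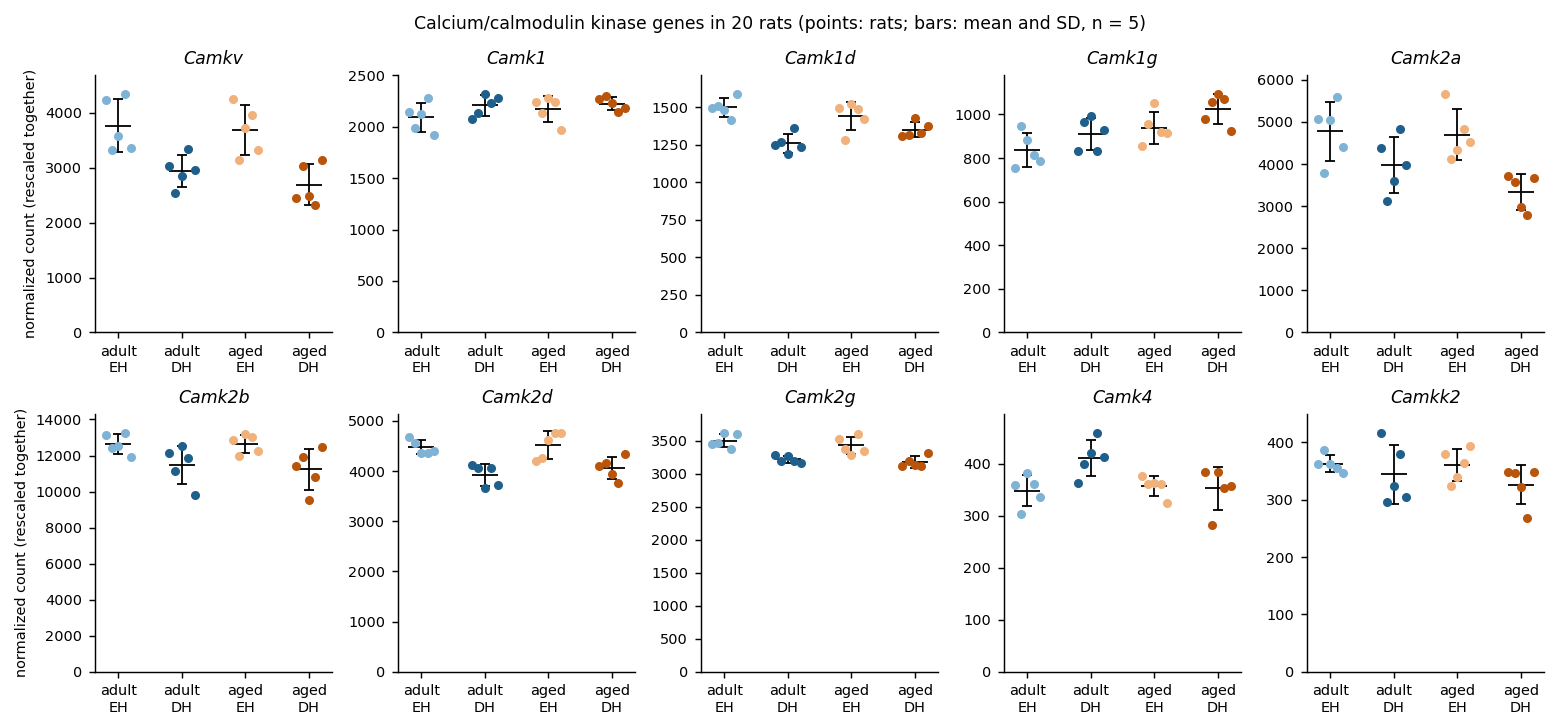
Normalized counts of the 10 kinase genes in each of the 20 rats, with both dehydration tables rescaled together; each point is a rat, and bars give the mean and SD of 5 rats. *Camkv* and *Camk2a* had lower means in both DH groups than in both EH groups, as did *Camk1d*, *Camk2b*, *Camk2d*, *Camk2g* and *Camkk2*. *Camk4* had its highest mean in adult DH rats.

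With the dehydration tables rescaled together, the mean *Camkv* level was highest in adult EH rats, at 3768 ± 488.5 (SD, n = 5) normalized counts. It was 3683 ± 456.2 in aged EH, 2943 ± 291.3 in adult DH and 2688 ± 371.7 in aged DH rats. Both DH means were below both EH means, and within each hydration state the adult mean was the higher. For *Camkv*, the means of the same hydration state differed by less than 1 SD. *Camk2a*, *Camk2g* and *Camkk2* had the same order. The means of *Camk2a* were 4778 ± 695.9 in adult EH, 4691 ± 606.9 in aged EH, 3981 ± 661.3 in adult DH and 3340 ± 425.9 in aged DH rats (SD, n = 5 each). In *Camk1d*, *Camk2b* and *Camk2d*, both DH means were also below both EH means. *Camk4* had another order: its mean was 411.7 ± 34.77 in adult DH rats and 348.6 to 357.4 in the other 3 groups. Rats of a group differed more in *Camkv* and *Camk2a* than in *Camk2d* or *Camk2g*. In adult EH rats the SD was 12.9% of the mean for *Camkv* and 14.5% for *Camk2a*, against 3.20% for *Camk2d* and 2.96% for *Camk2g*. Levels of different genes were not set against each other, because the values were not scaled to transcript length.

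The first comparison asked whether the kinase genes differ between aged and adult rats with free access to water. No member passed the threshold (limma, Benjamini-Hochberg adjusted p under 0.05 over 15369 genes), beside 5.99% of all genes tested. At an unadjusted p under 0.05 there was 1 of 10 members, beside 20.3% of all genes, and edgeR and DESeq2 on the recovered reads called 0 each. That gene was *Camk1g*, a CaMK1 isoform anchored to membranes. It had 773, 972, 906, 836 and 808 normalized counts in adult EH rats and 874, 976, 1080, 940 and 940 in aged EH rats. Only 2 aged rats were above every adult rat, with a log2 fold change of 0.16 (95% interval 0.02 to 0.31, limma adjusted p = 0.189). None of the 10 genes had groups that did not overlap, beside 6.38% of all genes.

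*Camkv* had 4340, 3412, 3675, 4464 and 3445 normalized counts in adult EH rats and 4356, 3210, 3825, 4060 and 3418 in aged EH rats. These ranges overlapped almost fully, and the log2 fold change was -0.03 (95% interval -0.23 to 0.16, limma adjusted p = 0.884). For *Camk2b*, the CaMK2 isoform that binds actin, the interval of the difference was narrower, from -0.08 to 0.08. The log2 fold changes of the other 7 genes lay between -0.06 (*Camk1d*) and 0.05 (*Camk1*). Markers of other cells did move with age: 6 of 8 oligodendrocyte markers were lower and 2 of 6 microglial markers higher in aged EH rats, and their part in the members' values was not tested.

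The second comparison asked how dehydration changes the genes in adult rats. *Camkv*, *Camk1d*, *Camk2d* and *Camk2g* fell and no member rose. Thus 4 of 10 members were lower, beside 4.99% of the 15280 genes tested, and 0 of 10 were higher, beside 7.67%. Against the EH mean, the DH mean differed by -8.05% for *Camk2g*, -12.3% for *Camk2d*, -15.9% for *Camk1d* and -21.9% for *Camkv*. *Camk1d*, *Camk2d* and *Camk2g* were lower in all 5 DH rats than in any EH rat, beside 10.9% of all genes with groups that did not overlap. The median log2 fold change of the 10 members was -0.13, beside -0.01 over all genes tested. In these bulk samples, fewer cells of a type and less RNA per cell cannot be told apart.

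*Camkv* had 4165, 3279, 3520, 4282 and 3305 normalized counts in adult EH rats. It had 2988, 2494, 2810, 3288 and 2913 in adult DH rats. Of the 5 DH rats, 4 were below every EH rat and the other, at 3288, was level with the lowest EH rats. The mean fell from 3710 ± 479.6 to 2899 ± 287.8 (SD, n = 5 each), a log2 fold change of -0.35 ± 0.08 (SE, limma adjusted p = 0.0146). The study singled out *Camkv* in a gene network built from these samples, so its direction here is not independent evidence. The call was lost with no trend in the moderation (limma adjusted p = 0.0521), at the same fold change.

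Among the genes of the cytoplasmic cascade, *Camk1d* had the lowest adjusted p. Its normalized counts were 1475, 1489, 1462, 1397 and 1567 in adult EH rats and 1232, 1248, 1175, 1343 and 1219 in adult DH rats. The highest DH rat was below the lowest EH rat, and the log2 fold change was -0.25 ± 0.04 (SE, limma adjusted p = 0.00179). *Camk1* and *Camk1g* had log2 fold changes of 0.08 and 0.12 that missed the threshold (limma adjusted p = 0.310 and 0.280). *Camkk2*, the upstream kinase gene, had 357 ± 15.0 normalized counts in EH and 339 ± 51.0 in DH rats (SD, n = 5 each), with a wider spread among the DH rats.

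Of the CaMK2 genes, the broadly expressed isoforms *Camk2d* and *Camk2g* passed the threshold. *Camk2d* had 4610, 4499, 4296, 4300 and 4330 normalized counts in adult EH rats and 4055, 3992, 3611, 3997 and 3665 in adult DH rats. The groups were separate, with a log2 fold change of -0.19 ± 0.04 (SE, limma adjusted p = 0.00575). *Camk2g* had 3402, 3425, 3564, 3320 and 3544 in EH rats and 3228, 3145, 3227, 3150 and 3116 in DH rats. Its fall was the smallest of the 4, at -0.12 ± 0.03 on the log2 scale (SE, limma adjusted p = 0.0145). With the RNA integrity number as a covariate, both calls were lost, at log2 fold changes of -0.14 for *Camk2d* and -0.11 for *Camk2g* (limma adjusted p = 0.0862 and 0.105). This number was equal in all adult EH rats and varied only among the adult DH rats. Its part and that of dehydration therefore cannot be fully told apart, and the genes called in the whole table fell from 1934 to 1005. The call of *Camk2g* was also lost without the 2 adult rats numbered 2, whose marker level was the lowest of their groups (-0.12, limma adjusted p = 0.0523).

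The isoforms enriched in neurons, *Camk2a* and *Camk2b*, had lower means in adult DH rats but did not pass. *Camk2a* had 4990, 3737, 4971, 5499 and 4326 normalized counts in EH and 4304, 3076, 3541, 4755 and 3926 in DH rats. The ranges overlapped and the log2 fold change was -0.27 (95% interval -0.51 to -0.02, limma adjusted p = 0.153). For *Camk2b* it was -0.14 (95% interval -0.26 to -0.02, limma adjusted p = 0.117).

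*Camk4*, the gene of the nuclear kinase, was the member with the largest positive difference. It had 353, 300.0, 377, 356 and 330.0 normalized counts in adult EH rats and 358, 394, 415, 452 and 408 in adult DH rats. Of the DH rats, 4 were above every EH rat. The log2 fold change of 0.24 ± 0.08 (SE) narrowly missed the threshold in limma (adjusted p = 0.0546) and passed in DESeq2 on the recovered reads (adjusted p = 0.0338).

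**Figure D2:**
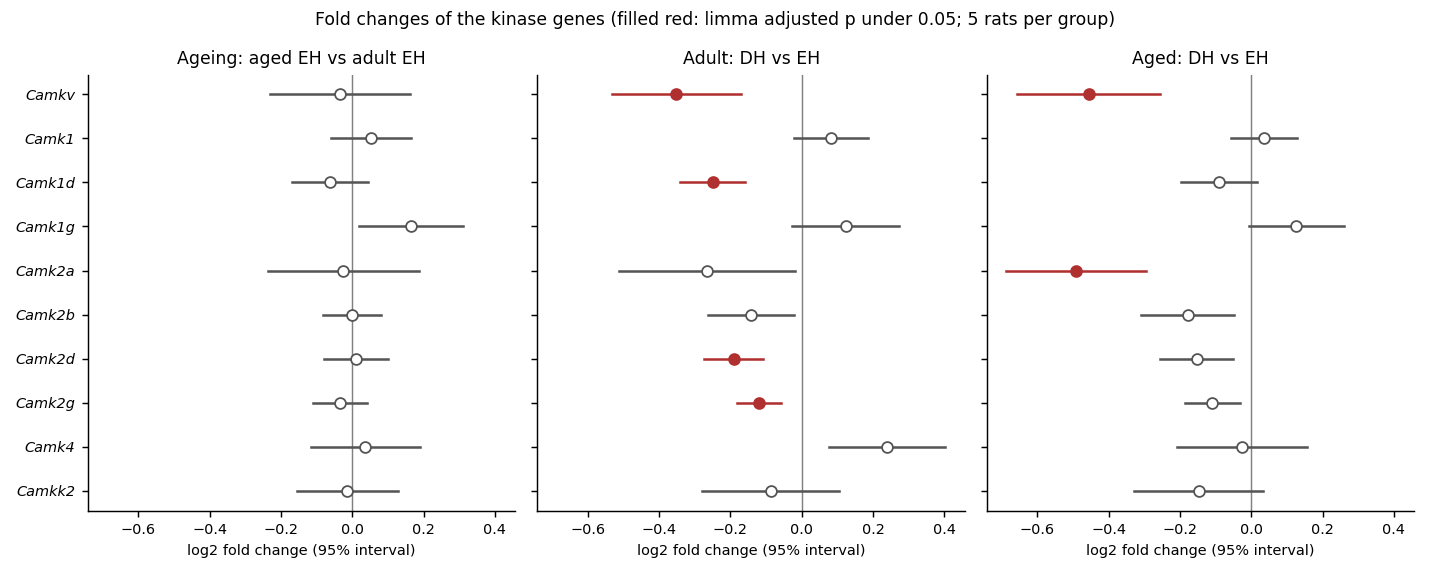
Log2 fold changes of the 10 kinase genes with 95% intervals in the 3 comparisons, 5 rats per group; filled red points passed the threshold of the limma test. No gene passed for ageing, 4 passed for adult DH and 2 for aged DH, and all 6 points that passed lie below 0.

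The third comparison asked the same of aged rats. *Camkv* and *Camk2a* fell and no member rose: 2 of 10 were lower, beside 3.25% of the 15346 genes tested, and 0 of 10 higher, beside 4.05%. Against the EH mean, the DH mean differed by -27.0% for *Camkv* and by -28.8% for *Camk2a*. The median log2 fold change of the members was -0.13, beside -0.003 over all genes tested. Only *Camk2a* had groups that did not overlap, beside 7.05% of all genes.

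*Camk2a* had 5798, 4199, 4449, 4931 and 4604 normalized counts in aged EH rats. It had 3788, 3641, 3042, 2851 and 3753 in aged DH rats. Every DH rat was below every EH rat, and the mean fell from 4796 ± 619.8 to 3415 ± 436.2 (SD, n = 5 each), a log2 fold change of -0.49 ± 0.09 (SE, limma adjusted p = 0.00527). *Camkv* had 4350, 3205, 3824, 4056 and 3396 in aged EH rats and 2508, 3099, 2546, 2372 and 3214 in aged DH rats. Of the DH rats, 4 were below every EH rat and 1 lay just above the lowest. The log2 fold change was -0.46 ± 0.09 (SE, limma adjusted p = 0.00919). The *Camkv* call was lost with no trend in the moderation (limma adjusted p = 0.0501). With the level of the cortex and amygdala markers as a covariate, both calls were lost, at -0.15 for *Camkv* and -0.13 for *Camk2a* (limma adjusted p = 0.927 and 0.931).

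The other CaMK2 genes had lower means in aged DH rats and did not pass in limma. The log2 fold change was -0.18 for *Camk2b* (95% interval -0.31 to -0.05), -0.15 for *Camk2d* (-0.26 to -0.05) and -0.11 for *Camk2g* (-0.18 to -0.03), with limma adjusted p of 0.0966, 0.0700 and 0.0814. For each of the 3 genes, 4 of 5 DH rats were below every EH rat. *Camk2d* and *Camk2g* passed in DESeq2 on the recovered reads, and *Camk2b* and *Camk2d* passed in limma without the aged DH rat numbered 6. *Camk1d*, which fell in adults, had a log2 fold change of -0.09 (95% interval -0.20 to 0.02) in aged rats. *Camk4* had 385, 369, 372, 370.2 and 332 normalized counts in aged EH and 393, 289, 394, 362 and 366 in aged DH rats, with no separation between groups.

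The ratio of *Camk2a* to *Camk2b* within each rat was lower in aged DH rats. Its log2 value was -1.18, -1.55, -1.60, -1.43 and -1.44 in aged EH rats and -1.62, -1.74, -1.68, -1.95 and -1.77 in aged DH rats, and the groups did not overlap. In adults it lay between -1.71 and -1.25 in EH rats and between -1.83 and -1.29 in DH rats, with wide overlap. The ratio depends on transcript lengths and is a measure of change between rats, not of the amounts of the 2 transcripts. Within groups, *Camk2a* had a higher Pearson's r with the cortex and amygdala marker level than *Camk2b* (0.780 and 0.456). The aged groups did not overlap on that level, and its part in the ratio was not tested.

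*Camkv* passed at both ages and the other 4 genes at a single age, but the difference between the dehydration responses did not pass for any member. The interaction test called 0 of 10 members and 0% of all 15326 genes in limma. At an unadjusted p under 0.05 there were 2 members and 1522 genes. DESeq2 called 55 genes and edgeR 0, with no member in either. The 2 members were *Camk1d* and *Camk4*. The log2 fold change of *Camk1d* was less negative in aged than in adult rats, with a difference of 0.16 (95% interval 0.02 to 0.29, limma adjusted p = 0.440). That of *Camk4* differed by -0.27 in aged rats (95% interval -0.51 to -0.03, limma adjusted p = 0.463). For *Camkv* the difference was -0.10 (95% interval -0.39 to 0.18) and for *Camk2a* -0.22 (95% interval -0.56 to 0.11). The interval of *Camk2a* leaves room for a larger and for a smaller response in aged rats. With the cortex and amygdala marker level as a covariate, the difference was 0.16 for *Camkv* (95% interval -0.09 to 0.42). For *Camk2a* it was then 0.13 (95% interval -0.13 to 0.39).

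Markers of the surrounding cortex and amygdala moved with dehydration in aged rats. Of the 14 markers, 7 fell, and none of the list was at 0 in any group. The fallen markers were *Neurod6* (log2 fold change -2.49), *Slc17a7* (-1.92), *Neurod2* (-1.86), *Bhlhe22* (-1.05), *Slc30a3* (-1.04), *Neurod1* (-0.77) and *Cck* (-0.48). *Slc17a7*, which codes for the vesicular glutamate transporter of cortical neurons, had 3261, 2035, 1916, 1609 and 1109 normalized counts in aged EH rats and 1064, 324, 351, 389 and 614 in aged DH rats. The groups did not overlap. *Tbr1*, *Lamp5*, *Nptx1* and *Emx1* (-0.27 to -0.02) and *Emx2* and *Fezf2* (0.24 and 0.36) did not pass. The summed level of the list was 6021 to 9470 normalized counts in aged EH and 4842 to 5760 in aged DH rats. In adults it was 4718 to 8421 in EH and 4912 to 7338 in DH rats, and only *Fezf2* passed, with a higher value after DH.

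Markers of other cells also moved with dehydration. In adult DH rats, 1 of 4 blood markers (*Hba-a1*, -0.81) and 1 of 8 oligodendrocyte markers (*Cnp*, -0.27) fell. Of 8 striatal markers, 1 fell (*Drd1*, -0.70) and 1 rose, and the median log2 fold change of that list was 0.06. In aged DH rats, 1 of 4 blood markers (*Hbb*, -0.84) and 1 of 8 astrocyte markers fell, and 2 of 8 oligodendrocyte markers, *Mobp* (0.35) and *Mal* (0.25), rose. All 4 blood markers were below 0 at both ages, with median log2 fold changes of -0.78 and -0.70, and all 8 oligodendrocyte markers were above 0 in aged rats. Of 7 pan-neuronal markers tested, 1 rose and 1 fell in adult DH rats and 1 rose in aged DH rats. The part of these markers in the members' values was not tested.

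**Figure D3:**
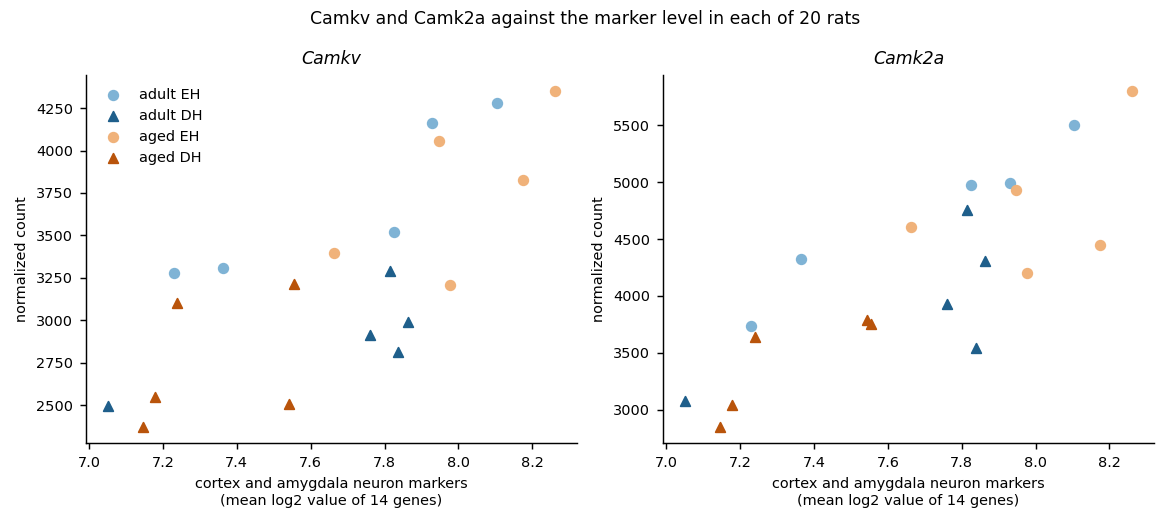
Normalized counts of *Camkv* and *Camk2a* in each of 20 rats against the mean log2 value of 14 markers of cortex and amygdala glutamatergic neurons; circles are EH and triangles DH rats, with blue for adult and orange for aged. Aged DH rats sit at marker values of 7.14 to 7.55 and aged EH rats at 7.66 to 8.26, while the adult groups share the range from 7.23 to 7.86.

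Rats with more of these markers also had more *Camk2a* and *Camkv* within their own group. Over the 20 rats, with group means removed, Pearson's r with the marker level was 0.780 for *Camk2a* (Spearman's rho 0.758) and 0.691 for *Camkv* (rho 0.731). By permutation within groups (100000 permutations, 10 genes compared), the Benjamini-Hochberg adjusted p was 0.0032 for *Camk2a* (rho 0.0053) and 0.0135 for *Camkv* (rho 0.0064). *Camk1* also passed, with r = 0.682, rho = 0.574 and adjusted permutation p of 0.0158 and 0.0462. Without the 2 rats farthest from the median, r was 0.649 for *Camk2a*, 0.622 for *Camkv* and 0.695 for *Camk1*. For *Camk2b* (r = 0.456, rho = 0.611) and *Camk4* (r = 0.455, rho = 0.562), rho passed and r did not (adjusted permutation p of 0.0251 and 0.0462 for rho and 0.106 for both r). *Camk2d* and *Camk2g* had r of -0.111 and 0.051 and *Camk1d* -0.127, none of which passed. The share of all genes that follow the marker level in this way was not counted. These relations are therefore not read as a trait of the kinase genes.

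With the marker level as a covariate, the adult falls kept their size. The log2 fold change of *Camkv* was -0.34 with a narrower interval (-0.45 to -0.24, limma adjusted p = 0.00055). Those of *Camk1d*, *Camk2d* and *Camk2g* were -0.25, -0.19 and -0.12, and all 3 still passed. *Camk2a* (-0.25, limma adjusted p = 0.0194) and *Camk4* (0.24, limma adjusted p = 0.0423) then passed as well. In aged rats, the same covariate left 0 of 10 members and 18 genes of the whole table called, against 1119 without it. At an unadjusted p under 0.05 there were 1 member, *Camk1*, and 1020 genes. The 95% interval then ran from -0.51 to 0.21 for *Camkv* and from -0.46 to 0.20 for *Camk2a*. Because the aged groups do not share any value of the marker level, dehydration and marker level cannot be told apart in aged rats.

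**Figure D4:**
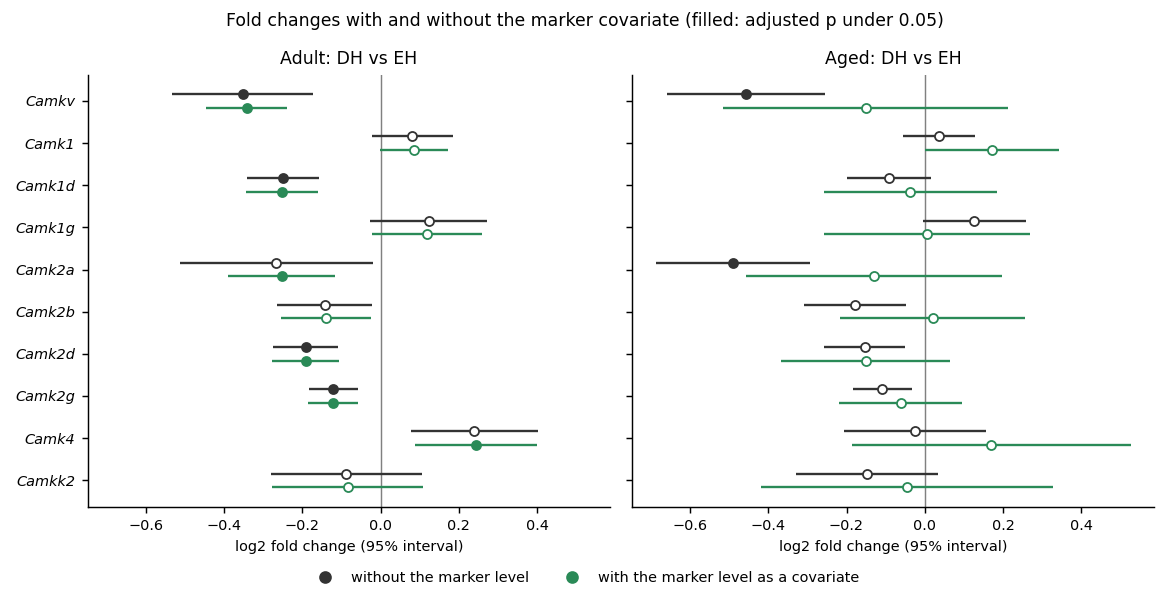
Log2 fold changes of the 10 genes after DH with 95% intervals, without (black) and with (green) the cortex and amygdala marker level as a covariate; filled points passed the limma threshold. In adults both estimates lie together, whereas in aged rats the intervals widen and *Camkv* and *Camk2a* move from -0.46 and -0.49 to -0.15 and -0.13.

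Among the genes whose pattern over the 20 rats was most like that of *Camkv* were *Nrgn* (r = 0.967), *Arpp21* (0.956), *Hpcal4* (0.948) and *Icam5* (0.947), of 13098 genes compared with group means removed. *Nrgn* codes for neurogranin, a postsynaptic calmodulin-binding protein, and *Icam5* for a telencephalic adhesion molecule. All genes of a rat share its library and punch, and these values are a description. Among the members, *Camk2a* was closest to *Camkv* (r = 0.814, rank 68) and *Camk1g* farthest (r = -0.536).

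The wider pathway was described with 110 genes in 8 lists, of which 103 were tested in each comparison. Dehydration called 18 of them in adults (7 higher, 11 lower) and 18 in aged rats (3 higher, 15 lower), and ageing called 5. Of all genes tested, 7.67% were higher and 4.99% lower in adult DH rats, 4.05% were higher and 3.25% lower in aged DH rats, and ageing called 5.99%. Of the 18 in each age, 9 were called in both, which is 50.0% of either list, with 6 lower and 3 higher in both. The share of all genes called at both ages was not counted, so this overlap is not read as a trait of the pathway. The interaction called 0 of the 103.

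Relatives of the kinases changed in both directions. *Pnck*, another CaMK1 relative, fell in both ages with no overlap of the groups, at log2 fold changes of -0.41 ± 0.05 (SE) in adults (limma adjusted p = 0.00012) and -0.28 ± 0.06 in aged rats (limma adjusted p = 0.0120). *Dclk3*, a doublecortin-like kinase gene, fell in both ages (-0.40 and -0.44). *Dclk1* rose in adults (0.29, limma adjusted p = 0.000695) and was at 0.06 in aged rats, and *Camkk1*, the partner gene of *Camkk2*, fell in adults (-0.22) and was at -0.09 in aged rats. The difference between ages did not pass for *Dclk1* (limma adjusted p = 0.191) or *Camkk1* (limma adjusted p = 0.486). Of inhibitors and phosphatases, *Camk2n1*, which codes for an inhibitor of CaMK2, fell in adults (-0.30), *Ppp1r1a* rose in adults (0.43) and the phosphatase 1 gene *Ppp1ca* rose in both (0.12 and 0.14).

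Of 18 nuclear targets tested, 1 rose and 1 fell in each dehydration comparison. *Crem*, a CREB relative with inducible repressor forms, rose by 0.55 ± 0.07 (SE) in adults and 0.44 ± 0.06 in aged rats (limma adjusted p = 0.00029 and 0.000601), and *Mef2c*, a transcription factor of neurons, fell in aged rats (-0.41). In the calcineurin system, the calcium-dependent phosphatase opposed to the kinases, the catalytic gene *Ppp3ca* fell in adults and aged rats (-0.20 and -0.29), *Rcan1* in adults (-0.14), and *Ppp3r1* (-0.15) and the anchor gene *Akap5* (-0.52) in aged rats. *Nos1*, the neuronal nitric oxide synthase, had the lowest adjusted p of the pathway: it rose by 0.70 ± 0.06 (SE) in adults and 0.78 ± 0.12 in aged rats (limma adjusted p = 1.04e-05 and 0.00165). Of the other calmodulin-dependent enzymes, *Adcy8* rose (0.17) and *Atp2b3* fell (-0.20) in adults, and *Atp2b4* fell (-0.31) in aged rats.

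Of 21 synaptic targets of CaMK2 tested, 7 fell and none rose in aged DH rats, beside 3.25% of all genes lower and 4.05% higher. In aged rats 20 of the 21 had a log2 fold change below 0, with a median of -0.22, and in adults 17 of the 21, with a median of -0.08. The interaction called none of the 21. The 7 were *Actn2* (-0.55), which codes for an actin-binding partner of the enzyme, *Kalrn* (-0.35), the AMPA receptor genes *Gria2* (-0.35), *Gria1* (-0.22) and *Gria3* (-0.20), *Stx1a* (-0.32) and *Syn2* (-0.28). In adults, *Actn2* (-0.44) and *Syn2* (-0.21) fell and *Grin1*, the obligatory NMDA receptor subunit gene, rose (0.13). *Nrgn*, of the calmodulin-binding proteins, fell in both ages, at -0.61 ± 0.16 (SE) in adults and -0.67 ± 0.18 in aged rats (limma adjusted p = 0.0277 and 0.0345). The cortex and amygdala markers fell in the same aged rats. With their level as a covariate, 0 of the 103 pathway genes passed in aged DH rats, beside 18 of the 15346 genes tested. At an unadjusted p under 0.05 there were 8 pathway genes, beside 1020 of all genes. Of the 21 synaptic genes, 15 were below 0 with a median of -0.09. In adult DH rats, 21 of the 103 passed with the covariate (8 higher, 13 lower), beside 1986 of the 15280 genes tested. With age in EH rats, *Marcks* (-0.18), *Marcksl1* (-0.34) and *Dapk2* (-0.83) were lower and *Pde1b* (0.13) higher. *Rasgrf1* (0.12 with age) and *Crtc1* (-0.13 in adult DH) passed too and are named outside the rule, after their values were seen.

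**Figure D5:**
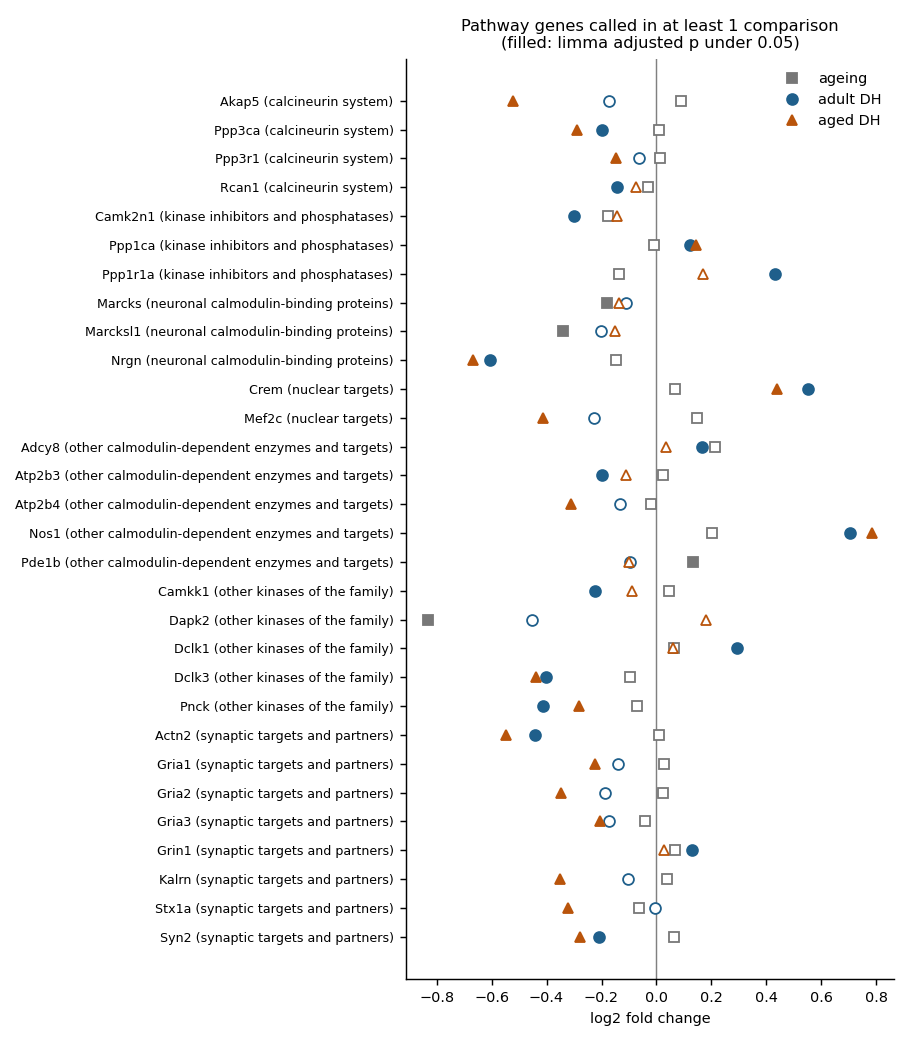
Log2 fold changes of the 30 pathway genes with the lowest adjusted p that passed in at least 1 comparison, grouped by list; squares are ageing, circles adult DH and triangles aged DH, and filled symbols passed the limma threshold. *Nos1* and *Crem* lie to the right of 0 and *Nrgn*, *Pnck*, *Dclk3* and *Actn2* to the left of 0 after DH at both ages.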

How the data were processed

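SON punches from 20 male rats, 5 in each of 4 groups, were profiled by stranded poly(A) RNA-seq. Per the labels and the study's methods, the authors aligned reads with STAR to Rn6, counted them per gene with featureCounts and normalized them with DESeq2. The 3 deposited tables (aged EH with adult EH, and DH with EH at each age) hold signal values, namely read counts divided by a size factor per library and table. The strand setting of the counting is not given in the sources used here. Columns with the authors' own fold changes and p-values were not used.

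Dividing by the value of 1 read gave whole reads for at least 99.9% of values above 0 (tolerance 0.01 reads), and the 10 libraries present in 2 tables gave equal reads. Samples were grouped by their labels. The main test was limma 3.58.1 (R 4.3.3) with a mean-dependent moderation on log2(normalized count + 1), two-sided, for genes with a mean of at least 10, with p-values adjusted by Benjamini and Hochberg's method across every tested gene (threshold 0.05). Fold changes are on that scale. Ageing compared aged EH with adult EH, each DH comparison stayed within its table, and the interaction was the aged DH difference less the adult one over 20 rats. The ageing and DH comparisons share EH rats, so their results are not independent. The errors given are the spread between rats, which includes counting error. For the 10 members in 4 groups (40 values), that SD was 0.808 to 10.9 times the counting error (median 2.54), and under 2 times in 13.

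Alternatives were another pseudocount, filter, scaling or moderation, the replicate block, RNA integrity or marker covariates, 1 fit of all rats, edgeR 4.0.16 and DESeq2 1.42.0 on the recovered reads, and leaving out each rat. The fits were tested on simulated data, where limma recovered 75% of genes changed 1.5-fold and 86% of those changed 2-fold in the adult DH comparison (100 genes each). False calls there were 9 of 170 with limma, 12 of 173 with edgeR and 20 of 183 with DESeq2. In aged DH they were 11 of 177, 12 of 178 and 32 of 202, and in ageing 18 of 192, 18 of 190 and 36 of 212. DESeq2 thus gave the most false calls in each of these comparisons. All members changed by less than 1.5-fold, and the recovery of such smaller changes was not simulated.

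The genes and lists were chosen with earlier results of these data known. Named are all 10 members, the pathway genes called in any comparison (at most 30, lowest adjusted p first), genes among the 5 most like *Camkv* and markers of the cortex and amygdala list; a few genes these rules cover are not reported here. The replicate numbers do not pair animals: r of same-numbered rats ran from -0.083 to 0.162.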

Additional observations from a re-analysis of the deposited data

How the results depend on the processing

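Of the 76 values of the 6 called fold changes under alternatives other than leaving out a rat, 67 kept their side of the threshold, 9 no longer passed and 0 changed direction. Those that no longer passed were *Camkv* with no trend in the moderation (adjusted p = 0.0521 in adult DH and 0.0501 in aged DH), *Camkv* in aged DH with the replicate block (0.0980), *Camk2g* in adult DH with the replicate block (0.0863), *Camk2d* and *Camk2g* in adult DH with the RNA integrity covariate (0.0862 and 0.105), *Camkv* and *Camk2a* in aged DH with the marker covariate (0.927 and 0.931), and *Camk2g* in adult DH without the 2 adult rats numbered 2 (0.0523), the last chosen after seeing the data. With any single rat left out, all 6 calls held. The causes were not tested. The replicate block treats the label's number as a pair although the rats are different animals.

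The members called in adult DH were 2 with the RNA integrity covariate (4 in the main test). Those in aged DH were 4 with quantile normalization, 4 in 1 fit of all 20 rats, 4 with DESeq2, 1 with no trend, 1 with the replicate block and 0 with the marker covariate (2 in the main test). All genes called for ageing (921) were 516 with no trend and 553 with the marker covariate; for adult DH (1934) 987 with the replicate block and 1005 with the RNA integrity covariate; for aged DH (1119) 671 with no trend, 653 with the replicate block and 18 with the marker covariate; for the interaction (0) 1 with no trend, 1 with the replicate block and 55 with DESeq2. With 1 rat left out, the count ran from 594 (without adult EH rat 5; 599 without aged EH rat 4) to 906 for ageing, from 678 (without aged DH rat 5; 679 without aged EH rat 5) to 1186 for aged DH, and from 0 to 5 for the interaction, the last without aged EH rat 6. Members called in aged DH ran from 2 to 4, the latter without aged DH rat 6.

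Changes of sign occurred only in values that were not called in the main test. For ageing these were *Camk2d* with equal totals (-0.020), *Camkk2* with quantile normalization (0.0020), *Camk1* (-0.015), *Camk4* (-0.039) and *Camkk2* (0.0085) with the marker covariate, and *Camk2b* in 1 fit of all rats (0.0022) and with edgeR (0.00024). For aged DH they were *Camk2b* (0.020) and *Camk4* (0.17) with the marker covariate. For the interaction they were *Camk1* (0.023), *Camk2b* (0.093) and *Camk2g* (-0.00090) with the replicate block, and *Camkv* (0.16), *Camk1* (0.069), *Camk1g* (-0.10), *Camk2a* (0.13), *Camk2b* (0.075) and *Camkk2* (0.031) with the marker covariate. Leaving out 1 rat gave -0.089 to 0.021 for *Camkv*, -0.11 to 0.034 for *Camk2a*, -0.022 to 0.019 for *Camk2b*, -0.011 to 0.036 for *Camk2d*, -0.012 to 0.071 for *Camk4* and -0.047 to 0.023 for *Camkk2* in ageing. It gave -0.060 to 0.052 for *Camk4* in aged DH. For the interaction it gave -0.042 to 0.047 for *Camk1g*, -0.090 to 0.023 for *Camk2b*, -0.0044 to 0.030 for *Camk2g* and -0.11 to 0.012 for *Camkk2*.

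For 13 of the 40 member and group means, the SD between rats was under 2 times the counting error, *Camk4* in 3 of its 4 groups and *Camkk2* in 3 of its 4 among them, so counting error is part of the spread there.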

Other observations

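Within groups, 2 of the 45 pairs of kinase genes had correlations that passed after adjustment by both Pearson's r and Spearman's rho, and *Camkv* with *Camk2b* passed by rho alone (r = 0.560, rho = 0.684, permutation within groups with adjusted p of 0.143 and 0.0351, and r = 0.504 without the 2 farthest rats). *Camkv* and *Camk2a* varied together over the 20 rats with group means removed (Pearson's r = 0.814, Spearman's rho = 0.821, permutation within groups with adjusted p of 0.00855 and 0.00315), and r was 0.787 without the 2 rats farthest from the median. *Camk1g*, the membrane-anchored CaMK1 isoform, ran opposite to *Camk2a* (r = -0.727, rho = -0.708, permutation within groups with adjusted p of 0.0389 and 0.0351), with r = -0.685 without the 2 farthest rats. The p-values are adjusted over the 45 pairs, and pairs of other genes were not tested. Within groups, *Camkv* and *Camk2a* each followed the cortex and amygdala marker level (r = 0.691 and 0.780). The part of that level in these relations was not tested. *Camk1g* also had higher means in DH than in EH rats at both ages, 897 against 824 normalized counts in adults and 1048 against 960.2 in aged rats, differences that did not pass (limma adjusted p = 0.280 and 0.254).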
